A study of Equus caballus with 6 samples.

Results

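The sequences described here were the piRNA-type small RNAs of exactly 28 nt that began with T and had a base other than A at position 10. They numbered 338954 of the 4936717 sequences in the deposited table of horse testis, and 2935241 sequences of 25 to 32 nt met the same base rule. The rule used only the length, the first base and the base at position 10, so read counts and all other positions were free to vary. The study collected total RNA from testes of the Mongolian horse (Equus caballus) and sequenced small RNAs in 3 libraries from immature and 3 from mature testis. No treatment or allele was named for either group, and neither an age nor a stage of spermatogenesis was given in the labels. The table was named as one of newly found piRNAs, so sequences that were kept elsewhere were not analysed here.

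PIWI-interacting RNAs (piRNAs) are small RNAs of germ cells that guide PIWI proteins to transposons and other transcripts. Primary piRNAs are cut from long single-stranded precursors, usually begin with uridine, and have their 3′ ends trimmed and methylated once a PIWI protein holds the 5′ end, so that the final length depends on the bound protein. In the ping-pong cycle, a PIWI protein cuts a target opposite positions 10 and 11 of its piRNA, which gives a secondary piRNA with adenine at position 10 whose first 10 nt pair with those of the first one. The sequences below carried the first base of the primary type and lacked the base at position 10 of the secondary type, and they stood between the short and the long lengths of the pool.

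The members described singly further on are printed first, 5′ to 3′, with capitals at positions 1, 10 and 28. T stands for U, as in the file. The first 8 were the most abundant among those called higher in mature testis on both scales of the test given further on.
uniq_2743867: TgctttagcTctcgtcactgtgcaagtC
uniq_2898867: TgctgatggCggtgatactgactccggC
uniq_2839540: TaaaggattTgggaggaagcctggtagG
uniq_4869051: TtttaatacGtgtgctctgatctgcttC
uniq_5205263: TgctgtgaaCatgactgcttatgatgtC
uniq_3635104: TatctgattGtcggagacctgtgacccC
uniq_5107955: TtccatggaCtggagatctcagctgggA
uniq_3133754: TctgaaattTggggactgtatgactgtT

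The next 8 were the most abundant among those called higher in immature testis on both scales.
uniq_5177575: TccctggtgGtctagtggttaggattcA
uniq_322065: TagtactctCcgtgtctgtgaactgacC
uniq_1174155: TgagcaagaCtgacaggctgtttgacgT
uniq_1170975: TgagcaagaCtgacagggtgtttgacgT
uniq_3682934: TactgtgacTgaaaggtattctctgagT
uniq_4773509: TggacatgaTgactatgattatctgagG
uniq_3854129: TattttgttGgttttcggaactgaggcC
uniq_356439: TtttgctgaGgaagactggccctgagcT

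The last 4 were the most abundant of the 10 tested members that were called on neither scale.
uniq_5252250: TgcaaaggcTgactgcaccccggtggaT
uniq_4577319: TacacatgtGtatagctcagtctgcaaT
uniq_4330501: TatgatcttTtgaactcagtcaagactC
uniq_4212392: TggctgttcGggaactgagacaccgatC

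The table totals were 1382083 to 2347351 reads in the immature and 4032042 to 4550970 reads in the mature libraries, and all shares and CPM values (counts per 1000000 reads) below are relative to these totals. Between 99320 and 139230 reads in the immature libraries and between 195536 and 235830 in the mature libraries were of members. A count of 0 allowed up to 3 reads, which was 1.28 to 2.17 CPM in the immature and 0.659 to 0.744 CPM in the mature libraries. The labels did not state that the libraries came from separate animals, so p-values measure only the spread between these libraries, which may be technical. With 3 libraries against 3, the exact two-sided permutation test of group means cannot give a p below 0.1. In bulk testis, fewer cells of a type and less piRNA per cell cannot be told apart.

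Members took a smaller share of the piRNA pool in mature testis. They made up 7.19%, 5.93% and 6.79% of reads in immature replicates 1 to 3 and 5.29%, 4.85% and 5.18% in mature replicates 1 to 3. Every immature library lay above every mature library, and the 95% Wilson interval of each share reached at most 0.0431 percentage points to either side. The means were 6.64% ± 0.645 (SD, n = 3) in immature testis and 5.11% ± 0.231 in mature testis (exact permutation p = 0.1). The share of distinct sequences was also lower in mature testis, at 6.08% ± 0.154 against 7.73% ± 0.523 (exact permutation p = 0.1). Among all reads of 28 nt the members held 62.3% ± 0.935 in mature and 58.0% ± 0.0893 in immature testis (exact permutation p = 0.1), so the base rule fitted more of the 28 nt reads in mature testis.

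Among sequences of the same bases, 28 nt was a low point between its neighbours in both groups. In immature testis, 28.4% ± 0.967 of the reads with T at position 1 and no A at position 10 were 27 nt long, 12.4% ± 0.954 were 28 nt and 13.6% ± 0.368 were 29 nt. In mature testis the same lengths held 10.5% ± 0.416, 8.01% ± 0.358 and 24.1% ± 2.19. The shorter side thus led in immature and the longer side in mature testis, and 28 nt lay below both neighbours in each library. Reads of 28 nt divided by the mean of the 27 and 29 nt reads gave 0.622, 0.566 and 0.591 in the immature and 0.462, 0.470 and 0.458 in the mature libraries (exact permutation p = 0.1). For sequences with both T at position 1 and A at position 10 this ratio was 0.582 ± 0.0263 in immature and 0.414 ± 0.0091 in mature testis. Sequences with A at position 10 and no T at position 1, the bases of secondary piRNAs, had a ratio of 0.531 ± 0.0109 in immature but 0.984 ± 0.0462 in mature testis. Their 28 nt reads were thus near the mean of the 27 and 29 nt reads in mature testis. Whether they lay below each neighbour was not computed for this class.

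Most members were rare. Of the 338954 members, 262959 (77.6%) had 1 read in all libraries together, and these single reads held 45.7% to 49.4% of member reads in the immature but 14.3% to 16.6% in the mature libraries. Members found in immature testis alone numbered 183780 (54.2%, against 48.4% of all sequences), those in mature testis alone 132826 (39.2%, against 45.3%), and 22348 were in both. All 6 libraries held 1182 members. All 3 libraries of immature and none of mature testis held 3249 members (0.959%, against 0.816% of all sequences of the table), and all 3 of mature and none of immature testis held 8156 (2.41%, against 2.96%). The larger mature totals favour detection there, so these numbers do not rank the groups. Each distinct member had 3.13 ± 0.234 reads in mature and 1.43 ± 0.0538 reads in immature testis (exact permutation p = 0.1). This number rises with the total of a library, and neither it nor the share of single reads was computed at equal totals. The 100 most abundant members of each library held 16.02% ± 0.871 of member reads in mature and 7.72% ± 0.421 in immature testis (exact permutation p = 0.1), and 16.1% and 7.73% with every library thinned to 1382083 reads.

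Part of the members shared their 5′ ends with sequences of other lengths, but most member 5′ ends were found at 28 nt alone. A 5′ end was defined by the first 25 nt, and the members had 279116 of them. Of these, 52.3% were found at 28 nt alone and 1.29% at all 8 lengths from 25 to 32 nt. The 5′ end of uniq_2743867, the first member printed above, is shown at its lengths by the most-read sequence of each, with capitals at positions 1, 10 and the last base.
uniq_2601590: TgctttagcTctcgtcactgtgcaaG
uniq_3141110: TgctttagcTctcgtcactgtgcaagT
uniq_2743867: TgctttagcTctcgtcactgtgcaagtC
uniq_3649338: TgctttagcTctcgtcactgtgcaagtcT
uniq_3598971: TgctttagcTctcgtcactgtgcaagtctG
In mature testis this 5′ end had 39 reads at 26 nt, 246 at 27 nt, 1233 at 28 nt, 104 at 29 nt and 3 at 30 nt. It was thus an end of which 75.9% of mature and 64.1% of immature reads stood at 28 nt.

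At the same 5′ ends, mature testis held longer sequences. In 11247 of these 5′ ends every library had reads, and the mean length over them, each 5′ end weighted equally, was 28.19, 28.19 and 28.14 nt in the immature and 28.78, 28.79 and 28.71 nt in the mature libraries. The difference of 0.588 nt was larger than the spread within either group (exact permutation p = 0.1). The mean was longer in mature testis at 8569 of the 5′ ends, shorter at 2648 and equal at 30. The 3 mature libraries all lay above the 3 immature ones at 2991 of them (26.6%) and all below at 339 (3.01%). Over all 24008 5′ ends of the table with reads in every library, these shares were 24.4% and 3.19%, near those of the member 5′ ends, so the lengthening was not particular to them. The share of 28 nt at the member 5′ ends was 17.2% ± 0.792 in immature and 13.4% ± 0.373 in mature testis, that of 27 nt 19.4% ± 0.167 and 13.1% ± 0.609, and that of 30 nt 13.8% ± 0.211 and 20.2% ± 0.441 (exact permutation p = 0.1 for each).

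Seen from the member reads, 28 nt was more often the leading length of its 5′ end in immature testis. Over 5′ ends with 10 or more reads in a library, 44.4% ± 5.22 of immature member reads lay at 5′ ends whose most-read length was 28 nt, against 28.4% ± 2.72 in mature testis (exact permutation p = 0.1). In mature testis 49.4% ± 0.604 of member reads lay at 5′ ends that led at 29 to 30 nt, against 15.96% ± 2.36 in immature testis. For 5′ ends that led at 25 to 27 nt the order was the opposite, with 8.12% ± 0.938 in mature and 29.4% ± 2.46 in immature testis. These shares covered 78.0% ± 1.78 of mature but 31.6% ± 4.39 of immature member reads, because fewer immature 5′ ends reached 10 reads.

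The last base of the members varied far more than the bases before it. Among members with 50 or more reads in a library, variants that differed in position 28 alone added up to 17.2% to 24.9% of the reads of the member and its variants, whereas the median over 23 inner positions was 0.262%. The highest inner value was 6.31%, at position 18 in immature replicate 1, where uniq_1174155 and uniq_1170975 differ by C18G, counted from the 5′ end. Such variants of the last base are shown for uniq_2898867, with position 28 in capitals.
uniq_2898867: tgctgatggcggtgatactgactccggC
uniq_2898888: tgctgatggcggtgatactgactccggT
uniq_2898889: tgctgatggcggtgatactgactccggA
uniq_2898874: tgctgatggcggtgatactgactccggG
In mature testis C held 59.2% of these 28 nt reads, T 19.4%, A 19.1% and G 2.34%. Of the 604 longer reads with the same first 27 nt, 596 had C at position 28. T was the most frequent last base of the variants over all members, at 45.9% ± 2.57 of variant reads in immature and 42.8% ± 2.32 in mature testis, followed by A with 19.1% ± 4.3 and 29.5% ± 1.16.

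Longer reads that shared the first 27 nt gave a base to compare with position 28. Where 10 or more longer reads of a library had the same base there in 90% or more, and the 28 nt sequence with that base was listed, the last base of the members was unlike that of the longer reads in 22.0% ± 4.97 of immature and 23.0% ± 2.16 of mature reads (exact permutation p = 0.9). The lowest value was 16.3%, in immature replicate 1, and the other 5 libraries ran from 21.6% to 25.5%. The same comparison at position 27 gave 1.88% ± 0.308 and 1.40% ± 0.0984, and at position 26 it gave 0.668% ± 0.00787 and 0.476% ± 0.05. Of the unlike last bases 43.3% ± 2.47 were T in immature and 45.2% ± 2.55 in mature testis, and 27.7% ± 0.556 and 28.96% ± 1.78 were A. Within the libraries the share at 28 nt differed from that at 27 nt by -1.61 ± 2.16 percentage points (exact sign-flip p = 0.25, adjusted 0.333) and from that at 29 nt by 0.443 ± 1.56 (exact sign-flip p = 0.531). The difference from 27 nt was not of 1 kind over the groups: it was -3.80, -3.10 and -3.75 points in the mature and 0.24, 0.107 and 0.677 points in the immature libraries, which did not overlap. At 341 of 8462 starts (4.03%) with 10 or more reads of 28 nt, the sequence that the longer reads would give was not listed, and with these starts kept the shares were 29.2% and 25.1%. The compared reads were 13.1% ± 2.99 of immature and 66.4% ± 2.1 of mature member reads.

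Positions 2 to 27 of the members also departed from an even use of bases. G stood at position 2 in 44.4% ± 1.2 of immature and 43.0% ± 1.5 of mature reads, and at position 27, next to the last base, in 43.1% ± 0.825 and 41.3% ± 0.623. A at position 27 was least frequent there, with 10.6% ± 0.183 and 12.3% ± 0.212. The last base was T in 36.4% ± 2.71 of immature and 31.1% ± 1.25 of mature reads. The next-to-last G was also the leading base at the neighbouring lengths, at 36.5% ± 1.23 and 34.7% ± 0.625 of 27 nt reads and 40.2% ± 0.247 and 39.3% ± 0.141 of 29 nt reads.

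Mature member reads carried more A at position 5 and more G at positions 12 and 13. The shares of A at position 5 were 34.7%, 36.4% and 36.8% in the immature and 43.1%, 42.7% and 43.4% in the mature libraries. G stood at position 12 in 31.7% ± 0.3 of immature and 37.4% ± 1.15 of mature reads, and at position 13 in 23.8% ± 0.228 and 30.7% ± 0.858. Over 107 base and position pairs the smallest Benjamini-Hochberg adjusted exact permutation p was 0.162, and no p of this design can fall below 0.1. Many other pairs shared this smallest p, so those given here are examples and not the only pairs that differed. With each distinct sequence counted once the means were nearer, at 35.6% and 37.3% for A at position 5, 31.3% and 33.4% for G at position 12, and 24.2% and 26.4% for G at position 13. The base at position 10, where the rule excluded A, was T in 42.1% ± 0.65 of immature and 40.5% ± 0.34 of mature reads, G in 32.2% ± 0.33 and 32.4% ± 0.579, and C in 25.7% ± 0.565 and 27.1% ± 0.811. For G at position 10 the groups overlapped (exact permutation p = 0.7), and without mature replicate 1 the difference turned from 0.198 to -0.0526 percentage points. The GC content of positions 2 to 28, position 10 left out, was 48.4% ± 0.274 in immature testis and 48.8% ± 0.0964 in mature testis (exact permutation p = 0.1).

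Other piRNA 5′ ends stood close downstream of more member reads in mature testis. A sequence of the same library that began 1 to 5 nt downstream, matched over 20 nt, was found for 40.5%, 46.9% and 40.9% of member reads in the immature and for 72.9%, 72.3% and 75.3% in the mature libraries. No mature value came near an immature one, and the means were 42.7% ± 3.58 and 73.5% ± 1.54 (exact permutation p = 0.1). With every library thinned to the smallest total they were 40.8% and 63.8%, and over distinct members 28.7% and 47.5%. By distance, the share at 3 nt was 18.9% ± 1.95 in immature and 40.0% ± 2.16 in mature testis, and that at 4 nt was 14.8% ± 1.69 and 30.4% ± 1.4.

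Partners with complementary first 10 nt, the mark of ping-pong pairs, were present for many member reads. Because members lack A at position 10, a partner that pairs over its first 10 nt cannot begin with T, so partners were limited to sequences without T at position 1, a choice made after the data were seen. Such a partner in the same library was found for 40.3%, 49.2% and 40.9% of member reads in the immature and 39.8%, 39.2% and 40.9% in the mature libraries. At windows 1 to 5 nt away the mean shares were 17.1% ± 2.42 and 16.8% ± 0.4. The excess at 10 nt was 26.4 ± 2.6 percentage points in immature testis and 23.2 ± 0.468 in mature testis (exact permutation p = 0.1), and thinned to equal totals it was 24.5 and 16.3. The limit on partners favours the unshifted window in advance. Shifted windows can begin with T and then match no member, whereas unshifted ones cannot begin with T. The size of this excess is thus no measure of ping-pong pairing alone, and the part due to the limit was not tested. With partners of any first base the excess was -11.7 ± 1.58 in immature testis and -10.6 ± 1.08 in mature testis (exact permutation p = 0.4), since T-beginning sequences then counted at the shifted windows only. The best-read partner of uniq_356439 is shown with the paired 10 nt of both in capitals.
uniq_356439: TTTTGCTGAGgaagactggccctgagct
uniq_2353314: CTCAGCAAAAagaggaggactggcagt
This member had 33 partner sequences with 47 reads in immature and 19 in mature testis. Of the other 15 members named as higher in 1 group, 5 had no partner sequence, and the rest had between 1 and 16 with at most 19 reads in all. A match over 10 nt is a description and was not tied to a place in the genome.

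Compared with their neighbours of the same bases within each library, 28 nt reads had more G and C. At positions 2 to 25, position 10 left out, the GC content was higher than that of 25 to 27 nt reads in 6 of 6 libraries, by 0.656 ± 0.457 percentage points (SD over libraries), and higher than that of 29 to 30 nt reads in 6 of 6, by 0.917 ± 0.574. The differences were 0.184 to 0.517 in the immature and 0.928 to 1.57 in the mature libraries. G at position 10 was less frequent at 28 nt in 6 of 6 libraries, the differences being -2.91 ± 1.33 points against 25 to 27 nt and -2.02 ± 1.8 against 29 to 30 nt. They were larger in immature testis. Against 25 to 27 nt they were -4.50, -3.28 and -4.26 in the immature and -1.29, -2.41 and -1.70 in the mature libraries. Against 29 to 30 nt they were -4.29, -3.87 and -2.49 in the immature and -0.190, -1.04 and -0.236 in the mature libraries. The downstream 5′ ends placed 28 nt between the others, 9.29 ± 2.23 points from 25 to 27 nt and -4.76 ± 1.21 points from 29 to 30 nt. For these 6 comparisons the exact sign-flip p was the smallest that 6 libraries can give, and it was 0.0357 when adjusted over 8 comparisons. The excess of 10 nt overlaps, with partners without T at position 1, was 3.06 ± 1.02 points higher than at 25 to 27 nt in 6 of 6 libraries (adjusted exact sign-flip p = 0.125 over 4 comparisons) and 1.67 ± 1.55 higher than at 29 to 30 nt in 5 of 6 (adjusted exact sign-flip p = 0.188). The remaining 2 of the 8 comparisons used partners of any first base, gave 1.52 and 0.914 points, and are not read further, because the base rule sets the sign of that measure. Without sequences that begin like the glutamate and glycine tRNA fragments, the difference of G at position 10 from 29 to 30 nt was -0.575 points (adjusted exact sign-flip p = 0.125). The 28 nt reads then had the higher share in 2 of 6 libraries. With each distinct sequence counted once, the downstream difference from 29 to 30 nt was -1.64 points (adjusted exact sign-flip p = 0.25).

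Single members were compared with edgeR, whose quasi-likelihood test was fitted on 31788 sequences of the whole table that passed its filter on low counts, 1867 of them members. The filter kept members that were high in 1 group, so the counts that follow describe these members only. With library totals as the scale, 1358 members (72.7%) were called higher in mature testis and 458 (24.5%) higher in immature testis at a Benjamini-Hochberg adjusted p under 0.05. Over all tested sequences the shares were 77.7% and 20.3%. With TMM factors, which centre the bulk of the tested sequences, 93 members (4.98%) were mature-high and 499 (26.7%) immature-high, against 8.41% and 21.9% of all tested sequences. Mature-high calls were thus 74.8% of all member calls with library totals and 15.7% with TMM factors. The median log2 fold change of mature over immature was 2.82 for members and 3.15 for all tested sequences on library totals, and 0.29 and 0.62 with TMM factors, a shift of 2.52 for all tested sequences. On both scales the member share was lower than that of all tested sequences for mature-high calls and higher for immature-high calls. The tested sequences include the members, and the differences were not tested. Of the 93 members called higher in mature testis with TMM factors, 53 had no read in any immature library, and of the 499 called higher in immature testis 74 had none in any mature library.

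The 1358 mature-high members of the library-total scale held 40.5% of mature and 3.27% of immature member reads, and the 458 immature-high members held 12.1% of immature and 0.944% of mature member reads. T stood at position 28 in 31.3% of the mature-high, 36.7% of the immature-high and 32.9% of all tested members. G stood at position 27 in 41.3%, 48.3% and 43.0% of them, and T at position 10 in 42.8%, 48.5% and 44.3%, in the same order. On the TMM scale, 16.1% of the 93 mature-high and 36.9% of the 499 immature-high members ended in T. These shares are descriptions of the called members, without a test.

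uniq_2743867 was the most abundant in mature testis of the 93 members called higher there on both scales. It stood at 2.17, 6.82 and 1.37 CPM in immature replicates 1 to 3 and at 87.0, 92.8 and 71.4 CPM in mature replicates 1 to 3. The lowest mature library lay far above the highest immature one, and the immature values came from 3, 16 and 2 reads. Its log2 fold change was 4.50 ± 0.77 (SE) with library totals (edgeR adjusted p = 2.94e-08). With TMM factors it was 1.95 ± 0.68 (edgeR adjusted p = 0.0163). Here and below, the SE of a log2 fold change was back-calculated from the fold change and its quasi-likelihood F value. Over 14 alternatives the adjusted p ran from 9.93e-10 to 0.0316. The ratio of the mature to the immature mean was 24.3, and 47.3 without immature replicate 2.

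uniq_2898867 was read at 0.724, 5.96 and 6.15 CPM in the immature and 102.7, 64.7 and 76.9 CPM in the mature libraries, which did not overlap. Its ratio of means was 19.0. uniq_3635104 had the largest ratio of this list, 50.1, with 0, 1.70 and 2.05 CPM in the immature and 61.8, 47.4 and 78.9 CPM in the mature libraries. It stood on 7 immature reads, for which the ratio of pooled reads was 47.0 with a 95% exact counting interval of 22.7 to 117.2. Its log2 fold change was 5.53 ± 0.84 with library totals (edgeR adjusted p = 4.02e-10) and 2.99 ± 0.78 with TMM factors (edgeR adjusted p = 0.000626). At its 5′ end 28 nt was not the main length: of 6875 mature reads, 4028 were 29 nt and 17.4% were 28 nt.

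The other 5 mature-high members, uniq_2839540, uniq_4869051, uniq_5205263, uniq_5107955 and uniq_3133754, averaged 44.5 to 76.3 CPM in the mature and 1.36 to 3.74 CPM in the immature libraries. None of their immature values exceeded 6.39 CPM and none of their mature values was below 27.03 CPM. Leaving out immature replicate 2 moved the ratio from 20.4 to 31.6 for uniq_2839540 and from 32.6 to 130.1 for uniq_3133754, of whose 9 immature reads 8 came from that library. Leaving out immature replicate 3 moved the ratio of uniq_5205263 from 21.6 to 42.5. Of the 8 members, uniq_2898867, uniq_2839540, uniq_5205263 and uniq_5107955 lost the call under 1 of 14 alternatives, with adjusted p up to 0.105. The call with TMM factors was a condition of the list, so that alternative could not lose it. The 8 did not share a leading length: in mature testis 28 nt led at the 5′ ends of uniq_2743867, uniq_2898867, uniq_2839540, uniq_5107955 and uniq_3133754, and 29 nt at the other 3.

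uniq_5177575 was the most abundant member called higher in immature testis. Its first 27 nt read like the 5′ end of a glutamate tRNA, although no tRNA reference was compared here. The values were 444.3, 420.5 and 393.2 CPM in the immature and 50.5, 43.7 and 32.1 CPM in the mature libraries, with no overlap. The ratio of immature to mature means was 9.97, with a log2 fold change of mature over immature of -3.32 ± 0.73 with library totals (edgeR adjusted p = 9.42e-06) and -5.92 ± 0.74 with TMM factors (edgeR adjusted p = 1.05e-14). It stood at a 5′ end of 116 sequences with 71047 immature reads, of which 40125 were 31 nt and 4.09% were 28 nt. Its last base A was found in 533 of 77558 longer reads with the same first 27 nt, T in 231 and C in 133, and a 28 nt member ending in G was not listed. A sequence counted as beginning like a tRNA fragment if its first 10 nt differed from those of the fragment at 1 base at most. Matches this short can arise by chance, and how many did was not tested. Members that began like the glutamate and glycine tRNA fragments numbered 184 and held 0.871% to 1.16% of member reads in the immature and 0.165% to 0.286% in the mature libraries. Only 1 of them began like the glycine fragment. It held 0.0503%, 0.00718% and 0.00705% of member reads in the immature and 0.104%, 0.0445% and 0.0428% in the mature libraries. Without all sequences that began like either fragment, the member share of the pool was 7.49% in immature and 5.20% in mature testis.

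uniq_322065 was seldom read in mature testis. It had 430, 189 and 237 reads in the immature libraries (311.1, 80.5 and 162.1 CPM) and 2, 1 and 1 reads in the mature ones. The ratio of pooled reads was 524.4, with a 95% exact counting interval of 204.1 to 1929, and the ratio of means was 582.3, and 382.7 without immature replicate 1. At its 5′ end 28 nt led with 1119 of 2026 immature reads, and T in place of C at the end was read 91, 80 and 80 times in the immature libraries, 22.7% of their 28 nt reads.

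uniq_1174155 and uniq_1170975 are the pair that differs by C18G, and both were higher in immature testis. uniq_1174155 stood at 290.9, 145.7 and 110.8 CPM in the immature and 1.45, 1.98 and 0.44 CPM in the mature libraries, and uniq_1170975 at 189.6, 113.3 and 136.8 CPM and 3.62, 3.22 and 1.76 CPM. The ratios of immature to mature means were 141.3 and 51.1, on 16 and 36 mature reads. Both led at 28 nt, with 65.8% and 61.0% of the immature reads of their 5′ ends, and both shared the same 16 partner sequences with 8 immature and 11 mature reads.

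uniq_3682934 and uniq_4773509 stood almost wholly at 28 nt. The former had 97.0% of the immature and 96.4% of the mature reads of its 5′ end at this length, and the latter 94.1% and 91.9%. uniq_3682934 was read at 167.1, 135.0 and 123.1 CPM in the immature and 14.0, 14.4 and 11.2 CPM in the mature libraries (edgeR log2 fold change -3.42 ± 0.71 with library totals, adjusted p = 3.51e-06). uniq_4773509 stood at 112.1, 114.6 and 165.5 CPM and 12.1, 22.8 and 9.67 CPM (edgeR log2 fold change -3.14 ± 0.70, adjusted p = 1.36e-05). Neither pair of groups overlapped. No reference of other RNAs, ribosomal RNA among them, was compared here. Whether this pair, or any other named member, are pieces of such RNAs was therefore not tested.

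The last members of the immature list ended at more lengths. uniq_3854129 was read at 141.1, 103.1 and 144.3 CPM in the immature and 8.46, 6.45 and 7.47 CPM in the mature libraries, a ratio of 17.4, and its 5′ end led at 27 nt in immature and at 28 nt in mature testis. uniq_356439 stood at 135.3, 91.2 and 123.8 CPM and 15.7, 18.8 and 12.5 CPM, a ratio of 7.44, at a 5′ end of 79 sequences that led at 29 nt in both groups. All 8 members of this list were called under each of 14 alternatives, where the adjusted p was at most 0.00271. The alternative with TMM factors was part of how the list was chosen. In all 8, the log2 fold change of mature over immature lay between -2.89 and -9.01 with library totals and was lower still with TMM factors.

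For the 4 named members called on neither scale the direction depended on the scale. uniq_5252250 stood at 0, 5.11 and 3.42 CPM in the immature and 4.35, 7.44 and 7.69 CPM in the mature libraries, which overlapped. Its log2 fold change was 1.05 ± 0.62 with library totals (edgeR adjusted p = 0.0919) and -1.50 ± 0.64 with TMM factors (edgeR adjusted p = 0.064). The ratio of means was 2.28, and 3.80 without immature replicate 2. For uniq_4577319, uniq_4330501 and uniq_4212392 the log2 fold changes were 1.00, 1.08 and 1.04 with library totals and -1.54, -1.48 and -1.55 with TMM factors. Calls appeared in both directions under alternatives. With DESeq2, uniq_5252250, uniq_4577319 and uniq_4212392 were called higher in immature testis (adjusted p = 0.0356, 0.0457 and 0.0342). With edgeR on library totals, uniq_5252250 and uniq_4577319 were called higher in mature testis without immature replicate 2 (adjusted p = 0.0141 and 0.0317), and uniq_4212392 without immature replicate 1 (adjusted p = 0.0484). Over 12 alternatives the adjusted p of uniq_4330501 ran from 0.0606 to 0.358. uniq_4577319 held 10.9% of the 28 nt reads that shared its first 27 nt, so it was itself a minor variant of the last base, whereas uniq_4330501 held 86.9% and uniq_4212392 82.7%.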

How the data were processed

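The authors deposited whole-number read counts per distinct sequence of 25 to 32 nt, with a column for each library, as the raw whole numbers in it show. An alignment with Bowtie (version not given) is listed in the submitters' processing notes. The genome build is not given in the sources used here, nor is the way in which piRNAs were called. Per the labels' protocols, small RNAs received an adapter at either end and the library was cut from a gel by size, which limits the lengths seen. All 6 columns were used. Members were taken from the sequence column by length and bases, and the members and lists were chosen with earlier results of these data known.

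Shares were computed per library in Python 3.11.15 with numpy 2.4.6, pandas 2.3.3 and scipy 1.17.1 and compared by exact two-sided permutation tests of group means. Comparisons between lengths used exact sign-flip tests over the 6 libraries, adjusted by Benjamini-Hochberg over 8 comparisons, and over 4 for those added after the data were seen. For single sequences, edgeR 4.0.16 was run in R 4.3.3 (quasi-likelihood, filterByExpr, library totals as the scale), with p-values adjusted over all 31788 sequences tested. The SE given with a log2 fold change was not taken from the fitted model. It was back-calculated as the absolute fold change over the root of F, and is approximate. TMM and upper quartile factors, DESeq2 1.42.0, other filters, thinning to the smallest total and leaving out each library were alternatives. Named members were the 8 of highest mature mean among those called higher in mature testis on both scales, the 8 of highest immature mean among those called higher in immature testis on both, and the 4 of highest mean called on neither. A sequence that shared an unbroken run of 18 or more nt with one already chosen was to be skipped, which removed none. Reads carry no molecular identifiers, so an interval or floor covers counting error alone. The scripts were tested on simulated data.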

Additional observations from a re-analysis of the deposited data

How the results depend on the processing

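With 3 libraries against 3, no share can pass a threshold of 0.05, so for shares only a kept or turned direction is given here. Of 272 alternatives run on named members, 249 kept the direction and the call. Members named as higher in 1 group were chosen by calls with library totals and TMM factors. Their TMM alternatives were therefore kept by choice, and the alternatives reuse the same reads. The count of members higher in mature testis, 1358 as reported, was 93 with TMM factors, 630 with upper quartile factors and 150 with DESeq2. These were 4.98%, 33.7% and 8.03% of tested members, against 8.41%, 43.5% and 12.7% of all tested sequences. The mature-high count was 355 with a filter at 10 CPM in 3 libraries (485 members tested). It was 4990 with 6 or more reads in total (18901 tested) and 521 with thinned libraries (716 tested). These were 73.2%, 26.4% and 72.8% of tested members, against 81.2%, 31.2% and 79.2% of all tested sequences. The count higher in immature testis, 458, was 124, 4141 and 183 under the last 3 settings. These were 25.6%, 21.9% and 25.6% of tested members, against 17.9%, 18.1% and 19.4% of all tested sequences. With 6 or more reads in total, 26.4% of the tested members were called higher in mature testis, against 72.7% as reported. Over all tested sequences the 2 shares were 31.2% and 77.7%. Without 1 library each, the member counts ran from 1331 to 1356 for mature-high and from 450 to 460 for immature-high calls. Mature-high calls were 71.3% to 72.6% of tested members and 76.8% to 77.6% of all tested sequences. Immature-high calls were 24.1% to 24.6% and 19.8% to 20.4%. The 10 nt overlap excess with any partner, a difference of 1.05, was -1.91 with each distinct sequence counted once, -0.467 without the 100 most abundant members and -3.18 with partners without T at position 1. For G at position 10 the difference was -0.0997 with distinct sequences and -1.09 without the 100 most abundant members, and from -0.0526 to 0.515 without 1 library each. The difference in unlike last bases, 0.952, was -4.13 with starts that had no listed match kept and -1.90 to 2.69 without 1 library each, reversed without immature replicate 1 or mature replicate 2. Against neighbouring lengths, distinct sequences gave 0.241 (overlap, 25 to 27 nt), 0.457 (overlap, 29 to 30 nt) and -1.64 (downstream 5′ ends, 29 to 30 nt), and leaving out tRNA-like sequences gave 1.09 (overlap, 29 to 30 nt) and -0.575 (G at position 10, 29 to 30 nt). The cause of these moves was not tested. The members called on neither scale were reversed on 4 scales, with log2 fold changes, in the order DESeq2, TMM, TMM with the replicate block and upper quartile, of -1.33, -1.50, -1.20 and -0.62 for uniq_5252250, -1.36, -1.54, -1.39 and -0.68 for uniq_4577319, -1.33, -1.48, -1.57 and -0.63 for uniq_4330501, and -1.47, -1.55, -1.61 and -0.72 for uniq_4212392.

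The libraries of the groups share replicate numbers, but same-numbered libraries correlated at 0.0376, -0.0852 and 0.0102 in their deviations from the group means. Many sequences had few reads, so these values cannot decide whether same-numbered libraries shared anything beyond the number. The labels do not say. With the replicate block 1315 members were called higher in mature and 447 in immature testis, and with TMM factors and the block 16 and 481. In this order these were 70.4%, 23.9%, 0.857% and 25.8% of tested members. Over all tested sequences the shares were 76.3%, 19.8%, 2.18% and 21.4%. Not every library correlated best with its own number. The immature libraries had only 1.43 reads per distinct member, which limits what single members can show. How much of this came from their smaller totals was not tested.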
